A study of Mus musculus with 6 samples.

Results

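The heme biosynthesis enzymes examined here were Alas1, Alas2, Alad, Uros, Urod, Cpox, Ppox and Fech. They were chosen by gene symbol from the pathway and not by their values, although earlier results of these data were known. Of these 8 genes, 7 had a row in the normalized table of 12179 genes. Uros had none and was followed through its gene identifier in the raw count table of 27179 genes. RNA-Seq was performed on long-term hematopoietic stem cells (LT-HSCs), sorted as CD150+CD48-LSK cells from the bone marrow of C57BL/6 mice at 8 weeks of age. The series held 3 libraries labelled WT and 3 labelled Foxm1 heterozygous (Foxm1 HET). The titles of the Foxm1 HET libraries name a floxed Foxm1 allele and no Cre, and the RNA-Seq methods do not name the driver. Elsewhere the study used Tie2-Cre, which acts in endothelial and blood-forming cells, and Mx1-Cre, which is induced by injection, and for other experiments it calls Foxm1 fl/+ mice Foxm1 HET when they carry Tie2-Cre and WT when they do not. Its RNA-Seq methods do not say whether the same holds for the mice sequenced here.

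Heme is made by a chain of enzymes that begins and ends in mitochondria. ALAS joins glycine to succinyl-CoA, the cytosolic enzymes assemble pyrrole units into a ring, and CPOX, PPOX and FECH finish the ring and insert iron. Alas1 serves the heme needs of most cells, whereas Alas2 is the erythroid isoform, induced by GATA factors and held back at translation when iron is scarce. Stem cells need heme mainly for respiratory chain cytochromes and other hemoproteins, and the demand for it rises steeply once cells enter the erythroid lineage.

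Library totals ran from 14573002 to 25798509 counted reads, and between 4467 genes (Foxm1 HET replicate 2) and 9894 genes (Foxm1 HET replicate 1) had at least 10 reads. Foxm1, the targeted gene, was counted at 1182, 2615 and 2942 reads in WT replicates 1 to 3 and at 659, 5 and 742 in Foxm1 HET replicates 1 to 3. Each Foxm1 HET library was below each WT library, although the difference did not pass the test over all genes (log2 fold change -3.30, SE 2.33, edgeR quasi-likelihood test, adjusted p = 0.961). Kit, a receptor of stem and progenitor cells, had at least 10720 reads in every library. Slamf1, which encodes CD150, had 8 reads or fewer in 4 of the 6 libraries, and Ly6a, which encodes Sca-1, had 4 reads or fewer in 3 of them. Both genes were thus abundant in 1 library and nearly absent in another. Of the 8195 genes tested, 75.3% had a library at least 100 times above another in CPM. CPM is reads scaled to the library total after TMM adjustment of that total. A gene with no reads in a library always met the 100-fold limit, whatever its highest count, so the share includes genes of few reads. In bulk libraries, fewer cells with a transcript and less transcript per cell cannot be told apart.

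Short stretches of promoter sequence are shown for both ALAS genes, which set the rate of the route, and for Cpox, because they hold letters of factors known to act on heme genes. Promoter windows are 250 bases upstream of RefSeq starts in GRCm38.p6, were given for 7 of the 8 enzymes in 10 windows, and are written on the strand of the gene. Capitals mark a GATA motif (the letters AGATAA or else AGATAG, and the same with a first T, so TGATAA or else TGATAG, on either strand) in Alas2 and Cpox and the motif GCGCATGC, bound by the respiratory factor NRF1, in Alas1.
Alas2 promoter, chrX:150547319-150547348, plus strand: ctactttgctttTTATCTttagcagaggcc
Cpox promoter, chr16:58670110-58670139, plus strand: aaagcgcctatcTTATCAgtccaagcacct
Alas1 promoter, chr9:106247908-106247937, minus strand: gccgcacccaagGCGCATGCgcggcggtca
In both Alas2 and Cpox the motif lay 86 to 81 bases before the start, and in Cpox it overlapped by its first base a further GATA motif that ended 86 bases before the start. In Alas1 the motif lay up to 195 bases before the second of its RefSeq starts and overlapped a match on the other strand. The printed Alas1 stretch lies within the span of the counted gene, chr9:106233455-106247954, and so after its first base. GATA motifs were found for Alas2, Cpox and Uros and in 26.5% of all 32851 promoter windows. Those of Uros also lie within the span of the counted gene. The NRF1 motif was found for Alas1 among the enzymes and in 2.26% of all windows. The E-box CACGTG was found for Alad, Urod and Uros (6.02% of all windows) and CCAAT for Alad, Ppox and Urod (33.9%). For each motif an enzyme was listed if any of its windows held it, whereas the percentages are per window. The enzymes listed and the percentages are therefore not directly comparable. Neither the forkhead motif TAAACA (12% of all windows) nor the cell cycle element TTTGAA (16.0%) was found in the windows of the 7 enzymes. The Alas2 transcript also begins with an iron-responsive element in exon 1, in its 5′ untranslated region, whose loop letters are in capitals and to which the proteins encoded by Aco1 and Ireb2 bind when iron is low.
Alas2 iron-responsive element, GRCm38 chrX:150547458-150547485, plus strand: ttggttcgtcctCAGTGCagggcaacag

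The composition of the pathway differed widely between libraries within both genotypes. Levels of different enzymes are compared as TPM, a share of all transcripts that divides reads by gene length. The summed TPM of the 8 enzymes was 235.5, 271.3 and 132.4 in WT replicates 1 to 3 and 114.6, 27.5 and 556.9 in Foxm1 HET replicates 1 to 3. The lowest and the highest of the 6 sums were both in Foxm1 HET, so the genotypes overlapped. Cpox alone made up 79.2% of the sum in WT replicate 1. Alas1 led in WT replicate 2 with 45.1%, followed by Ppox with 37.7%, and Urod led in WT replicate 3 with 62.4%. Among Foxm1 HET libraries, Urod led in replicate 1 with 38.1%, and Alas1 led in replicates 2 and 3 with 43.2% and 49.1%. Thus 3 different enzymes led in the 3 WT libraries.

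**Figure D1:**
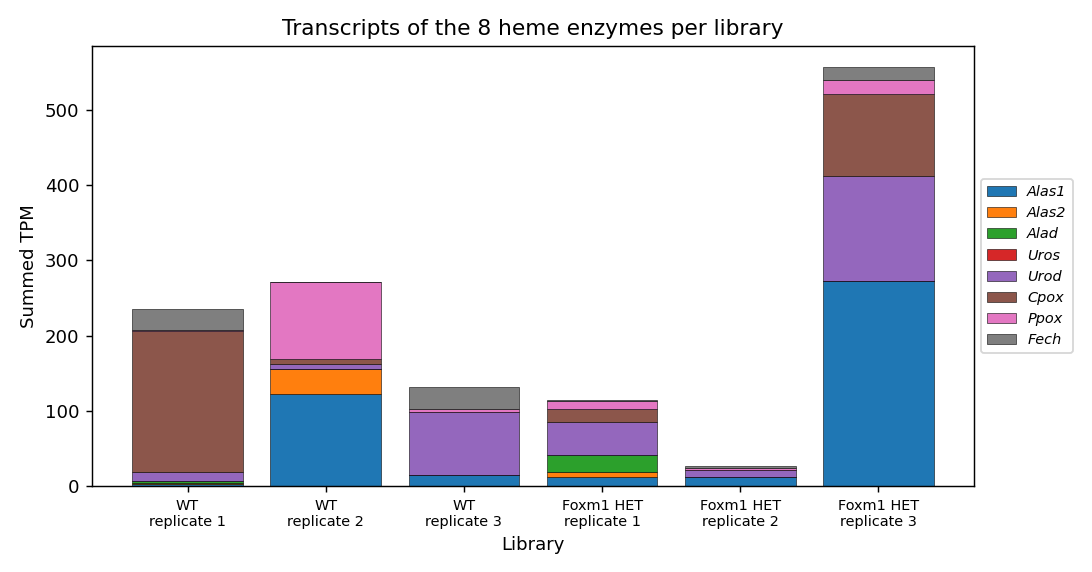
Stacked bars give the TPM of each of the 8 enzymes (colours) in each of the 6 libraries (x axis), with the summed TPM on the y axis from 0. Cpox fills most of the bar of WT replicate 1, Alas1 is the largest share of that of Foxm1 HET replicate 3 (49.1%), and the bar of Foxm1 HET replicate 2 is the lowest at 27.5 TPM.

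No library reached 10 reads for all 8 enzymes. With at least 10 reads as detection, 7, 5 and 5 of the 8 enzymes were detected in WT replicates 1 to 3 and 7, 4 and 5 in Foxm1 HET replicates 1 to 3. By mean TPM the order in WT was Cpox, Alas1, Ppox, Urod, Fech, Alas2, Alad and Uros. In Foxm1 HET it was Alas1, Urod, Cpox, Ppox, Alad, Fech, Alas2 and Uros. The TPM ranges of all neighbours in both orders overlapped, so that neither order separates one enzyme from the next. Ordered by the median instead of the mean, Fech came first in WT (27.5 TPM) and Urod first in Foxm1 HET (43.7 TPM).

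**Figure D2:**
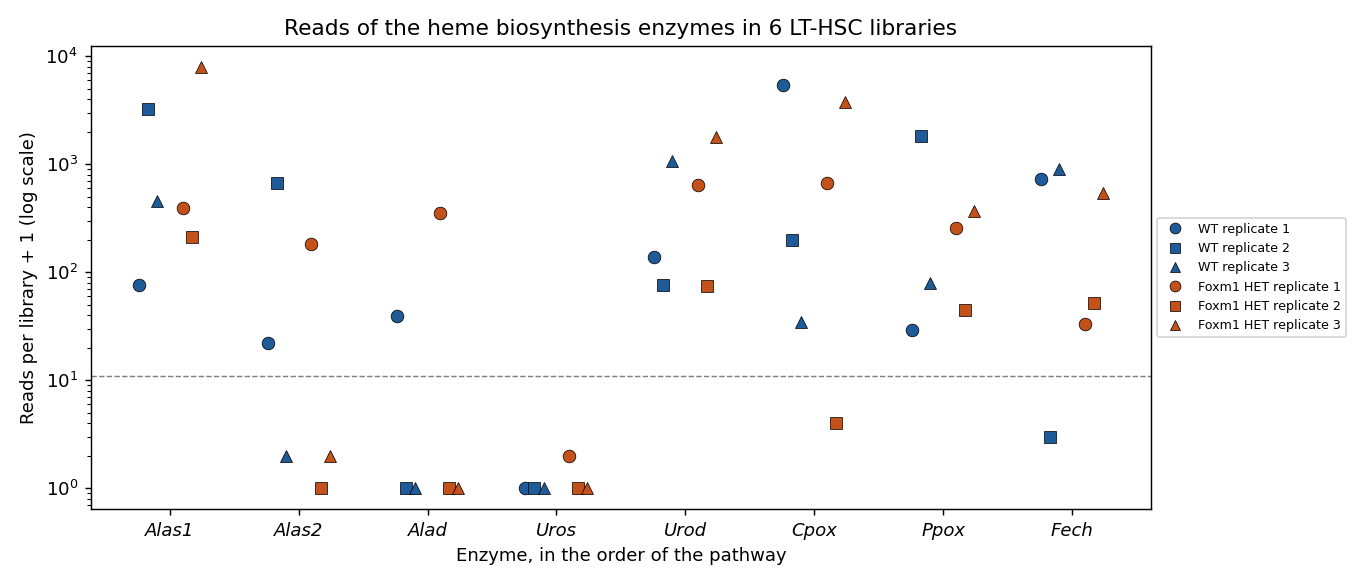
Points give the reads of each enzyme in each library plus 1, on a log scale, with enzymes in the order of the pathway on the x axis, WT in blue, Foxm1 HET in orange and a marker shape for each replicate number. The dashed line marks 10 reads, and for every enzyme shown the blue and orange points overlap in height or lie together at 0 reads.

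Alas1 and Alas2 encode the first and rate-limiting enzyme. Alas1, on chr9:106233455-106247954 (GRCm38, minus strand), was counted at 75, 3275 and 452 reads in WT replicates 1 to 3 and at 392, 213 and 7977 in Foxm1 HET replicates 1 to 3. WT replicate 2 and Foxm1 HET replicate 3 stood far above the other libraries, and WT replicate 1 was lowest. Its log2 CPM was 4.6 ± 2.7 in WT and 5.33 ± 2.12 in Foxm1 HET (SD, n = 3 each). The fitted log2 fold change, Foxm1 HET against WT, was 0.41 (SE 2.11, 95% interval -3.73 to 4.54), which did not pass the test (edgeR, adjusted p = 0.998). Without Foxm1 HET replicate 3 the fitted value was -1.48. Alas1, Urod and Ppox were the 3 enzymes with at least 10 reads in every library.

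Alas2, on chrX:150547417-150570622 (plus strand), had 21, 669 and 1 reads across the WT libraries and 183, 0 and 1 across the Foxm1 HET libraries, by replicate number. It was thus high in 1 library of each genotype and at 1 read or none in 3 of the 6. The log2 CPM was 0.714 ± 3.89 in WT and -1.52 ± 3.31 in Foxm1 HET (SD, n = 3 each), with a log2 fold change of -2.65 (SE 3.15, 95% interval -8.83 to 3.53, edgeR, adjusted p = 0.998). Without WT replicate 2 the fitted value of Alas2 was 1.63. Alas1 exceeded Alas2 in TPM in all 6 libraries. The ratio of Alas1 to Alas2 per length was 2.62 in WT replicate 1, 3.59 in WT replicate 2 and 1.57 in Foxm1 HET replicate 1, the libraries with more than 3 Alas2 reads (95% counting intervals 1.59 to 4.47, 3.30 to 3.90 and 1.31 to 1.88, exact binomial, covering counting error only). In Foxm1 HET replicate 2, where Alas2 had no reads, Alas1 was at least 52.0-fold higher, taking Alas2 at a floor of 3 reads.

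Because Alas2 belongs to the erythroid programme, markers of erythroid cells were read beside it. Of 15 listed markers, 11 were found by symbol in the count table, where others may stand under another name. Of these 11, 10 were tested, with fitted values above 0 for 2 and below 0 for 8 and none called. Their summed CPM ran from 560.0 to 2604 in WT and from 592.5 to 779.5 in Foxm1 HET. Hba-a1 was at 0 reads in all 6 libraries, but reads of Hba-a1 and its near-identical copy Hba-a2 may not be separable. Hbb-b1, an adult beta globin gene, had 13, 5272 and 2124 reads across the WT libraries and 1495, 3 and 82 across the Foxm1 HET libraries. The libraries with the most Alas2 in each genotype, WT replicate 2 and Foxm1 HET replicate 1, also had the most Hbb-b1, whereas WT replicate 3 had 2124 Hbb-b1 reads and 1 Alas2 read. Gata1 was at 0 in all 6 libraries. The part of erythroid transcripts in the Alas2 values was not tested.

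The cytosolic steps were covered unevenly. Alad, on chr4:62509170-62520063 (minus strand), encodes the enzyme that condenses aminolevulinic acid to porphobilinogen, and had 38 reads in WT replicate 1, 355 in Foxm1 HET replicate 1 and none in the other 4 libraries. Alad was therefore seen in 1 library of each genotype and did not pass the filter on low counts, so it was not tested.

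Uros, on chr7:133686330-133709295 (minus strand), encodes the enzyme that closes the ring, and had 1 read in Foxm1 HET replicate 1 and none in any other library. A count of 0 allows up to 3 reads, which is between 0.136 and 0.250 TPM for Uros in these 6 libraries. Uros was thus not detectable at this depth, and was not tested. Urod, on chr4:116990217-116994375 (minus strand), which removes carboxyl groups from the ring, had 138, 75 and 1063 reads across the WT libraries and 636, 73 and 1795 across the Foxm1 HET libraries. Urod had at least 73 reads in every library, with the most reads in Foxm1 HET replicate 3. The lowest counts, 73 and 75, were in 1 library of each genotype. By CPM, which takes library scaling into account, WT held both the highest library (66.5 in replicate 3) and the lowest (3.32 in replicate 2). The log2 CPM of Urod was 3.49 ± 2.26 in WT and 4.33 ± 0.987 in Foxm1 HET (SD, n = 3 each). The fitted log2 fold change was -0.10 (SE 2.63, 95% interval -5.26 to 5.06, edgeR, adjusted p = 0.998), opposite in sign to the difference of its mean log2 CPM of 0.84, and its sign turned under 5 other settings and 3 left-out libraries.

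The last 3 steps take place in mitochondria. Cpox, on chr16:58670208-58680391 (plus strand), which oxidises coproporphyrinogen, had 5482, 199 and 34 reads across the WT libraries and 668, 3 and 3759 across the Foxm1 HET libraries. Cpox was thus the most abundant enzyme of WT replicate 1 and was at the floor in Foxm1 HET replicate 2. Its log2 CPM was 4.08 ± 3.50 in WT and 3.25 ± 3.76 in Foxm1 HET (SD, n = 3 each), with a log2 fold change of -1.26 (SE 2.19, 95% interval -5.56 to 3.04, edgeR, adjusted p = 0.998), which was 2.85 without WT replicate 1.

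Ppox, on chr1:171276992-171281186 (minus strand), encodes protoporphyrinogen oxidase and had 28, 1843 and 79 reads across the WT libraries and 256, 44 and 372 across the Foxm1 HET libraries. All 3 Foxm1 HET libraries lay between the lowest and the highest WT library. Its log2 CPM was 3.04 ± 3.02 in WT and 2.90 ± 0.226 in Foxm1 HET (SD, n = 3 each). The fitted log2 fold change of -1.97 (SE 2.85, 95% interval -7.55 to 3.61, edgeR, adjusted p = 0.998) rested on WT replicate 2, and was 1.24 without it.

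Fech, on chr18:64456550-64489066 (minus strand), which encodes ferrochelatase and inserts iron into protoporphyrin, had 736, 2 and 906 reads across the WT libraries and 32, 51 and 536 across the Foxm1 HET libraries. WT held both the lowest and the 2 highest libraries. The log2 CPM of Fech was 2.78 ± 4.63 in WT and 2.19 ± 2.03 in Foxm1 HET (SD, n = 3 each), and the log2 fold change was -2.06 (SE 2.85, 95% interval -7.65 to 3.53, edgeR, adjusted p = 0.998). Fech kept its sign under each left-out library (-2.82 to -1.25), without passing the test in any of these fits.

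**Figure D3:**
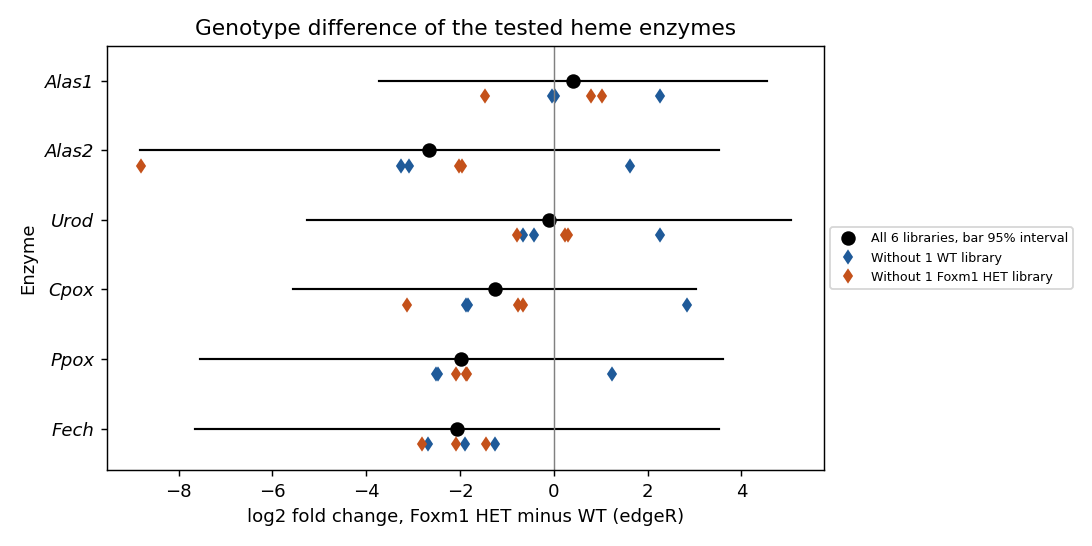
Black points give the log2 fold change, Foxm1 HET minus WT, of the 6 enzymes tested, with bars for the 95% interval from edgeR, and diamonds give the value after leaving out 1 WT (blue) or 1 Foxm1 HET (orange) library. Every bar crosses 0, and diamonds lie on both sides of 0 for every enzyme except Fech.

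None of the 6 enzymes tested passed the test between genotypes. None had an adjusted p under 0.05 by edgeR, against 0.329% of all genes tested (27 of 8195), and none an unadjusted p under 0.05, against 6.03%. DESeq2 called none of them, against 2.37% of all genes, and gave no adjusted p for Alas2. The genotypes overlapped in log2 CPM for all 6, whereas they did not overlap for 8.68% of all genes. In the exact permutation test over the 6 libraries (two-sided), whose smallest possible p is 0.1, p was 0.7 for Alas1, 0.5 for Alas2, 0.6 for Urod, 0.8 for Cpox, 1.0 for Ppox and 0.9 for Fech. The fitted value was above 0 for 1 enzyme and below 0 for 5, with a median log2 fold change of -1.62, against -0.26 and 54.6% below 0 over all genes tested. Without WT replicate 2 the median was 1.24, but over 7 enzymes and so not over the same set. Of the 6 enzymes, Alas1, Alas2 and Ppox were then above 0 (2.27, 1.63 and 1.24). Urod, Cpox and Fech were below 0 (-0.65, -1.84 and -2.67). The intervals spanned between 8.26 and 12.4 log2 units, so that changes of many fold in either direction lay within them.

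The spread of the enzymes within a genotype lay near the middle of that of all genes. The median SD of log2 CPM within a genotype was 3.0 for the 6 enzymes, with a range of 1.75 to 3.63, and 3.14 over all genes tested. A library at least 100 times above another in CPM was found for 3 of the 6 enzymes, against 75.3% of all genes. Genes with no reads in a library always count in these numbers. Foxm1 HET replicate 2 had neither the highest CPM of any of the 6 enzymes nor the depth of the other libraries, and Foxm1 HET replicate 1, the library with the most genes detected, was the highest for none of the 6 either.

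The pattern of each enzyme over the 6 libraries was compared with that of every other gene tested. After centring each gene on its mean log2 CPM, the gene closest to Alas2 was Ogfod3, at a mean absolute difference of 0.348 log2 units, and the gene closest to Cpox was BC055324, at 0.375. Urod was closest to Eif2s3x at 0.435 and Fech to Ubn2 at 0.707. Alas1 and Ppox shared the closest gene 8430429K09Rik, at 0.605 and 0.524. None of these closest genes was another heme enzyme, and with 6 libraries a close match is a description of these libraries only.

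The rest of the pathway was read from 4 lists. Among 16 genes of further synthesis and mitochondrial transport, 8 were tested and none called, with 3 above and 5 below 0 and a median log2 fold change of -0.78. Slc25a39, a mitochondrial carrier needed for heme synthesis, had 44, 3 and 133 reads across the WT libraries and 1830, 140 and 936 across the Foxm1 HET libraries, so that each Foxm1 HET library lay above each WT library. Slc25a39 was named for this lack of overlap, found for 1 of the 8 tested genes of this list and 8.68% of all genes tested. Its log2 fold change of 3.14 (SE 3.0) did not pass the test over all genes (edgeR, adjusted p = 0.998). With 1 library left out it ran from 2.55 without WT replicate 2 to 4.81 without WT replicate 3. Among the 8 genes that supply glycine and succinyl-CoA, 7 were tested and none called, with 4 above and 3 below 0 and a median of 0.04.

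Among 12 regulators of heme synthesis, 9 were tested and none called, with 2 above and 7 below 0 and a median log2 fold change of -0.86. Aco1, whose product without its iron-sulfur cluster binds the Alas2 element printed above, had 6093, 1036 and 430 reads across the WT libraries and 32, 4 and 590 across the Foxm1 HET libraries. Its genotypes did not overlap in log2 CPM, which takes library scaling into account, although by reads 590 in Foxm1 HET replicate 3 exceeded 430 in WT replicate 3. Aco1 was named for this lack of overlap, found for 1 of the 9 tested regulators and 8.68% of all genes tested. The log2 fold change of Aco1 was -4.48 (SE 2.50), which did not pass the test (edgeR, adjusted p = 0.9), and ran from -7.24 without Foxm1 HET replicate 3 to -2.67 without WT replicate 1.

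Heme use, transport and breakdown held the only related gene that was called. Of 12 listed genes, 11 were found by symbol in the count table, 7 were tested and 1 was called higher. Fitted values were above 0 for 3 and below 0 for 4, with a median of -1.15. Cox15, which makes heme A for cytochrome c oxidase, had 36, 100 and 13 reads across the WT libraries and 950, 20183 and 657 across the Foxm1 HET libraries. Cox15 rose in Foxm1 HET (log2 fold change 8.84, SE 2.05, edgeR, adjusted p = 0.00954), with Foxm1 HET replicate 2 far above the other 5 libraries. Without Foxm1 HET replicate 2 its log2 fold change was 3.20 and no longer called (edgeR, adjusted p = 1.0). The call was also lost without WT replicate 1 (adjusted p = 0.215), WT replicate 2 (0.219) or WT replicate 3 (0.173), with log2 fold changes between 8.42 and 9.73, and edgeR made it again without Foxm1 HET replicate 1 or 3. Cox15 was not called with RLE scaling (edgeR, adjusted p = 0.0862), with library size only (0.0587) or with limma-voom (1.0), and DESeq2 gave it no adjusted p. Hccs, which attaches heme to cytochrome c, had 3, 2 and 1 reads across the WT libraries and 707, 366 and 56 across the Foxm1 HET libraries, with all WT libraries at or under the floor of 3 reads. It passed the filter on low counts through the Foxm1 HET libraries alone, the group where it was high, so its test is not independent of the filter. Its log2 fold change of 7.98 (SE 3.87) did not pass edgeR's test (adjusted p = 0.775), whereas DESeq2 called it (adjusted p = 0.000417).

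**Figure D4:**
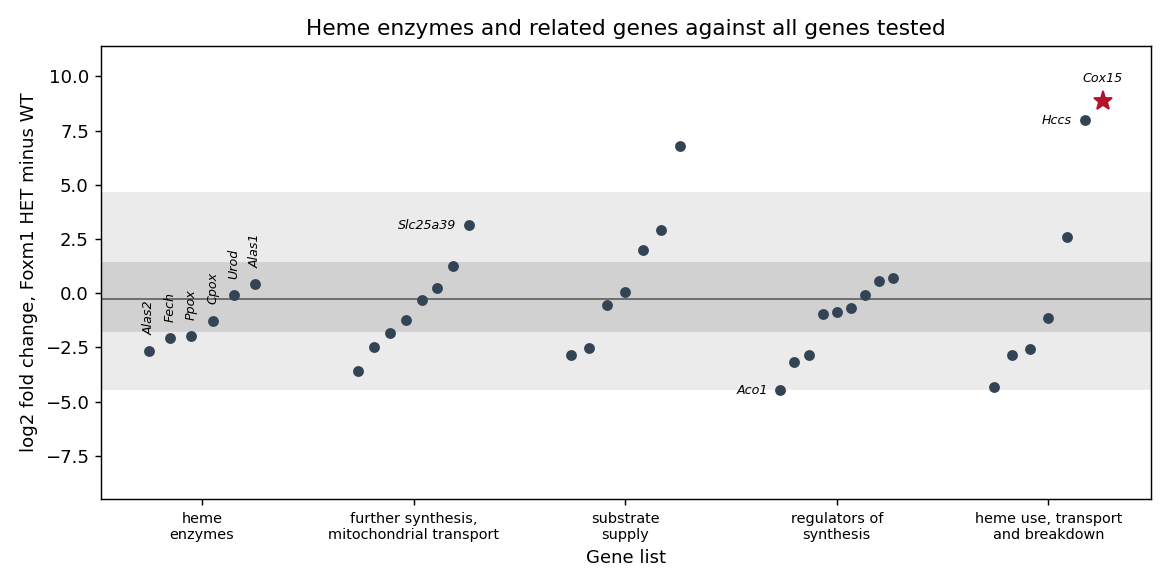
Each point is the log2 fold change, Foxm1 HET minus WT, of 1 tested gene among the heme enzymes or a related list (x axis), with the middle line at the median of all 8195 genes tested (-0.26), the dark band their 25th to 75th percentile (-1.74 to 1.40) and the light band their 5th to 95th (-4.40 to 4.61). The star marks Cox15, the only gene shown with an adjusted p under 0.05, and all 6 heme enzymes lie inside the light band.

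Markers of other cells that a stem cell sort could hold were read beside these values. The summed CPM of 12 stem cell markers, of which none was at 0 in every library, ran from 2698 to 7570 in WT and from 2987 to 11890 in Foxm1 HET. That of 10 neutrophil and monocyte markers, none of them at 0 in every library, ran from 4849 to 18590 in WT and from 857.7 to 16220 in Foxm1 HET. Of 6 megakaryocyte markers none was at 0 in every library, and their sum ran from 20.7 to 345.9 in WT and from 10.3 to 157.6 in Foxm1 HET. Of 8 macrophage markers, 7 were found by symbol in the count table. Their sum ran from 0.664 to 169.3 in WT and from 0.0717 to 51.3 in Foxm1 HET, with C1qa, C1qb and Spic at 0 throughout. The 6 B lymphoid markers ran from 273.3 to 1825 in WT and from 48.2 to 206.2 in Foxm1 HET, without overlap, and Cd79a, Ms4a1 and Vpreb1 were at 0. The part of these cell types in the values of the heme enzymes was not tested.

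Reads of 50 bases can be shared between genes. Among the 50-base stretches of GENCODE transcripts, 15.3% of those of Ppox, 11.5% of those of Alas2 and 5.70% of those of Alas1 also occurred in transcripts of other genes, and fewer for the other enzymes. None of the 8 enzymes shared exon bases with another gene of the count table.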

How the data were processed

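LT-HSC RNA was sequenced as single reads of 50 bases. The study's methods name a Clontech kit, whereas the labels name a ribosomal RNA depletion and a stranded total RNA kit. According to the study and the submitters' processing notes, STAR 2.7.2b placed reads on GRCm38. The counting program, and whether it used strand, are not given in the sources used here. Deposited by the authors were a table of raw read counts and a normalized table on the log2 scale, for which the notes name limma. All columns were matched to samples by name, and groups came from the genotype labels.

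Counts were tested with edgeR 4.0.16 in R 4.3.3 (default low-count filter, TMM scaling, quasi-likelihood test, Benjamini-Hochberg adjustment over 8195 genes, called at an adjusted p under 0.05). The SE was taken as the log2 fold change over the root of the F statistic. The exact permutation test ran on log2 CPM with a prior count of 2. TPM used the deposited gene lengths. DESeq2 1.42.0, limma 3.58.1 (voom, and the deposited log2 table), other scalings and filters, a replicate block and left-out libraries were alternatives. The code was tested on simulated data. Named genes were all 8 enzymes, Foxm1 and in each related list those called or, failing that, up to 3 with the smallest p whose genotypes did not overlap; Hccs, Kit, Slamf1, Ly6a, Hbb-b1, Hba-a1, Hba-a2 and Gata1 were added for their values or their role as markers. Some genes of these lists are not reported here by name. For likeness, the closest tested gene was named. Counting intervals and floors cover counting error only. The members and lists were chosen with earlier results of these data known. The study harvested 3 pairs of mice, but the labels do not say which library came from which animal, so p-values measure the spread between these libraries.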

Additional observations from a re-analysis of the deposited data

How the results depend on the processing

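No heme enzyme was called in any fit. The number of all genes called was 27, and it was 10 with RLE scaling, 7 with library size only, 36 without a filter, 0 with at least 10 reads in every library, 194 with DESeq2, 4 with limma-voom, 0 with limma on the normalized table and between 0 and 29 with 1 library left out. It was 0 without WT replicate 1, WT replicate 2 or Foxm1 HET replicate 2 (615, 549 and 626 at an unadjusted p under 0.05 in edgeR). With at least 10 reads in every library and with the normalized table, 157 and 576 genes had an unadjusted p under 0.05. Of the genes called, 26 were higher and 1 lower, with library size only 6 and 1, with DESeq2 116 and 78, and with limma-voom 0 and 4. The number of related genes called was 1, and 0 with RLE scaling, library size only, at least 10 reads in every library, limma-voom and the normalized table, and between 0 and 1 with 1 library left out. The median log2 fold change of all genes moved from -0.26 to -0.13 with RLE scaling and to 0.10 with library size only, and that of the 6 enzymes from -1.62 to -1.53 and -1.16. The median of the enzymes tested was -0.19 with limma-voom, -0.40 with the normalized table (7 enzymes), 0.33 with at least 10 reads in every library (3 enzymes) and 1.24 without WT replicate 2 (7 enzymes).

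The fitted value of Urod turned to 0.76 with library size only, 0.33 with at least 10 reads in every library, 1.16 with limma-voom and 1.49 with the normalized table. The cause was not tested. With 1 library left out, log2 fold changes ran from -1.48 to 2.27 for Alas1, from -8.79 to 1.63 for Alas2, from -0.79 to 2.26 for Urod, from -3.12 to 2.85 for Cpox and from -2.51 to 1.24 for Ppox.

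Same-numbered libraries did not deviate together (correlations over genes 0.0162, -0.0253 and -0.0687), so the numbers were not taken as pairs. With the replicate block, 0 genes, 0 heme enzymes and 0 related genes were called, with 108 genes at an unadjusted p under 0.05 in edgeR, and the fitted values were 0.88 for Urod and 0.19 for Ppox.

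The depth of Foxm1 HET replicate 2 and the spread between libraries, with a biological coefficient of variation of 1.66, limit what these 6 libraries can show.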
